A study of Caenorhabditis elegans with 8 samples.

Results

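The genes described here are those of *Caenorhabditis elegans* that encode FMRFamide-like peptides (flp) and other neuropeptide-like proteins (nlp). They were taken as the rows of the array whose only gene symbol in the platform annotation was a flp or nlp name with a number. The genes nlp-24 to nlp-34, known for antimicrobial peptides of the epidermis among others, were left out by that rule. This gave 98 of the 25478 genes on the array that had a row of their own, 31 flp and 67 nlp genes. Each of the 98 was read by 1 row, called a probe set, so no choice between rows was needed.

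Messenger RNA of whole worms was measured on 8 Affymetrix arrays, 1 for each RNA sample. The 4 samples of the control group were wild type (N2), and the other 4 carried the n4115 mutation of mir-71, a microRNA gene with known roles in lifespan and in the identity of AWC olfactory neurons. All worms were synchronised by bleaching, fed *Escherichia coli* OP50 and collected, with no treatment, on day 1 of adulthood. The labels give no cultures behind the 4 replicates of a group, so p-values measure the spread between these samples, which may be technical. Array medians of the log2 signal lay between 5.20 and 5.30.

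Neuropeptides are cut out of larger precursor proteins. The convertase EGL-3 cleaves the precursor, the carboxypeptidase EGL-21 trims the ends, and amidating enzymes finish many of the peptides. They are packed into dense core vesicles, released mostly by neurons, and act on G protein-coupled receptors. The flp precursors give peptides that end in arginine and phenylalanine amide, while the nlp precursors are a mixed collection of the other peptide families. In this animal such peptides are known for their part in locomotion, egg laying, feeding, sleep and responses to odours. No file used here holds their sequences, so none is shown.

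One array stood apart before any comparison was made. Wild-type replicate 4 correlated with the 4 mutant arrays at 0.986 to 0.993 over all tested probe sets and with wild-type replicates 1 to 3 at 0.961 to 0.976. It was kept with the wild type, as labelled. For 85 of the 98 neuropeptide genes (86.7%) its signal was nearer to the mutant mean than to the mean of wild-type replicates 1 to 3, against 72.2% of all genes. Its signal fell inside the range of the 4 mutant arrays for 64 of them (65.3%, against 53.3% of all genes). For most named genes and lists whose calls changed when this array was left out, the value without it is given too. That comparison called 36.9% of all genes, and each such call is to be read beside that share.

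Over all 8 arrays, nlp-62 was the single gene of the 98 that was called as different between the genotypes. It fell 3.15-fold in mir-71(n4115) worms. The other 66 nlp genes and all 31 flp genes did not pass the test (limma, Benjamini-Hochberg over 26192 probe sets, adjusted p of 0.05). Thus 1 of 98 was called, 1.02%, while 1.84% of all genes were called in either direction and 1.22% as lower in the mutants. The share was near that of the array as a whole. At an unadjusted p under 0.05 there were 8 flp and 21 nlp genes, together 29.6% of the 98 against 26.1% of all genes.

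The log2 differences, mutant minus wild type, were spread around 0. The median over the flp genes was -0.048 and over the nlp genes -0.053, beside 0.016 over all genes. With each array's trend with gene length (the gene's span on the chromosome) removed the family medians were 0.13 and 0.022, so neither family had a direction that held across processing. Of the flp genes 14 were higher in the mutants and 17 lower, and of the nlp genes 27 were higher and 40 lower. The quartiles over the 98 genes were -0.37 and 0.23, beside -0.22 and 0.26 over all genes. In whole-worm RNA, fewer cells of a type and less RNA per cell cannot be told apart.

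**Figure D1:**
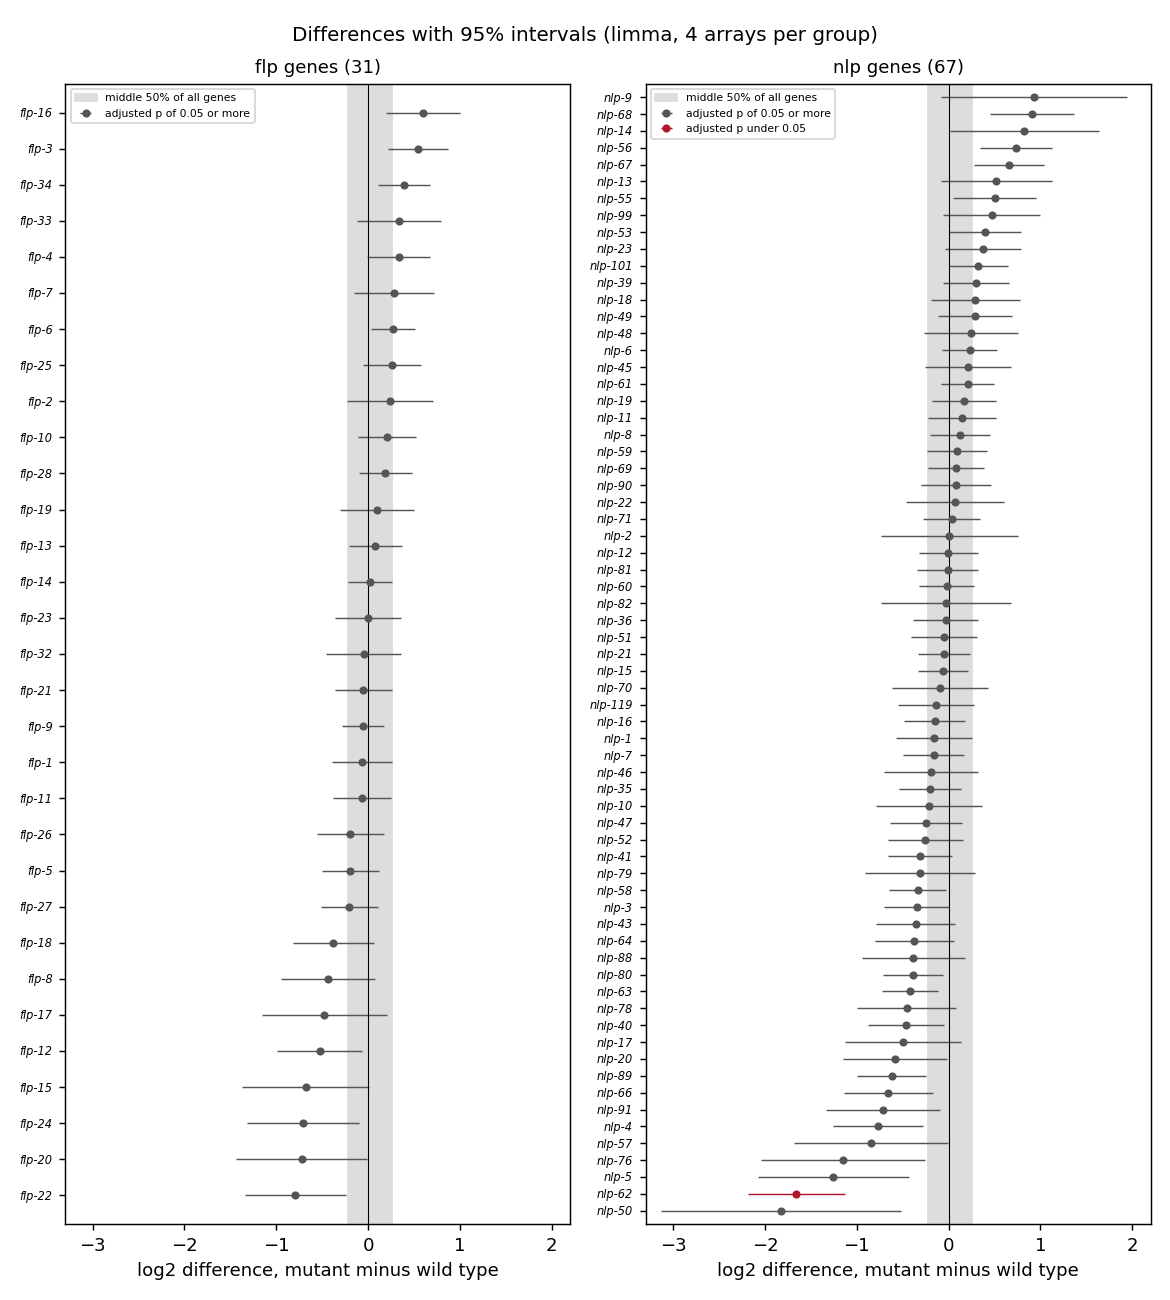
Log2 difference (horizontal axis, mutant minus wild type) of each flp gene (left) and nlp gene (right), ordered by size; points are limma estimates from 4 arrays per group, bars their 95% intervals, and the grey band the middle 50% of all genes (-0.22 to 0.26). The red point, nlp-62 at -1.66, is the single gene with an adjusted p under 0.05; nlp-50 lies lower at -1.83 with a much wider interval.

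The precision was enough to bound most genes. The median standard error was 0.16 for flp genes and 0.18 for nlp genes, beside 0.17 over all genes. For 26 flp and 51 nlp genes the 95% interval of the log2 difference lay between -1 and 1. These were 78.6% of the 98, near the 76.1% of all genes. Such an interval leaves out a 2-fold difference in signal between the groups as labelled. Wild-type replicate 4 is part of these intervals, so they do not bound the difference from wild-type replicates 1 to 3. The largest estimates among flp genes were -0.79 and 0.60. Among nlp genes they were -1.83 and 0.93.

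The gene nlp-62 lies on chromosome I. It read 5.83, 5.89, 5.85 and 4.84 in wild-type replicates 1 to 4. In mutant replicates 1 to 4 it read 4.14, 3.96, 3.86 and 3.82. All 4 wild-type arrays lay above all 4 mutant arrays, and wild-type replicate 4 lay lower than replicates 1 to 3. The group means were 5.60 ± 0.51 and 3.95 ± 0.15 (SD, n = 4), a log2 difference of -1.66 ± 0.23 (SE; limma, adjusted p = 0.0144). The 95% interval of the fall was 2.19-fold to 4.55-fold. The mutant values and wild-type replicate 4 were below their array medians. Without wild-type replicate 4 the log2 difference was -1.91 (adjusted p = 5.42e-05), and with the length trend removed it was -1.44 (adjusted p = 0.0127). The call was lost when any of 4 arrays was left out (replicates 1 and 2 of the wild type, 2 and 3 of the mutants), with adjusted p from 0.0578 to 0.0645 and log2 differences from -1.66 to -1.56.

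A pattern like that of nlp-62, in which the 4 arrays of one genotype lie on one side of the other 4, was seen in 10 of the 98 genes. Those with all mutant arrays higher were flp-3, flp-6, flp-34, nlp-56, nlp-67 and nlp-68, 6.12% against 6% of all genes. Those with all mutant arrays lower were nlp-58, nlp-62, nlp-63 and nlp-89, 4.08% against 5.01% of all genes. Both shares were near those of the array. Of the 10, nlp-58 and nlp-63 were named after their values were seen. Without wild-type replicate 4 both were called as lower, nlp-58 at -0.41 (adjusted p = 0.0364) and nlp-63 at -0.48 (adjusted p = 0.019). So were 17.8% of all genes.

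The nlp gene next in p was nlp-68. Its wild-type signals were 6.05, 5.93, 5.96 and 6.83 and its mutant signals 7.13, 7.11, 7.20 and 6.94. The mutants were higher, but wild-type replicate 4 stood just below them. The log2 difference was 0.91 ± 0.20 (SE; adjusted p = 0.0591), and it passed when array medians were subtracted (adjusted p = 0.0491). Leaving out the fourth wild-type array gave 1.12 (adjusted p = 1.84e-04).

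Wild-type signals of nlp-56 were 7.38, 7.16, 7.33 and 7.92, and mutant signals 8.20, 8.09, 8.37 and 8.05. The difference of 0.73 ± 0.17 (SE; adjusted p = 0.0682) came with the highest wild-type value, again in replicate 4, close to the lowest mutant value. Without that array it was 0.89 (adjusted p = 7.59e-04). For nlp-67 the wild type read 5.92, 5.81, 5.48 and 6.11 and the mutants 6.33, 6.25, 6.69 and 6.68, a difference of 0.66 ± 0.17 (adjusted p = 0.0813). In nlp-89 the order was the other way round: wild-type values of 5.84, 5.83, 6.28 and 5.48 lay above mutant values of 5.33, 5.23, 5.21 and 5.18 (-0.62 ± 0.17, adjusted p = 0.0871). With replicate 4 of the wild type left out, nlp-67 (0.75, adjusted p = 0.00651) and nlp-89 (-0.75, adjusted p = 0.00303) were called as well, beside 36.9% of all genes.

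A further 3 nlp genes of low p had wild-type replicate 4 among the mutants. The signal of nlp-4 was 4.03, 4.25, 4.19 and 3.22 in the wild type and 3.17, 3.28, 3.07 and 3.11 in the mutants (-0.76 ± 0.22, adjusted p = 0.0965). This gene was below the array median on every array, and without replicate 4 it was called (-0.998, adjusted p = 3.02e-04). For nlp-5 the wild type read 5.13, 5.38, 5.34 and 3.60 and the mutants 3.88, 3.55, 3.38 and 3.62 (-1.25 ± 0.37, adjusted p = 0.101). In nlp-50, the gene with the lowest estimate of all 98, the wild type read 6.72, 6.39, 6.71 and 3.94 and the mutants 4.45, 4.11, 3.49 and 4.40. Its difference of -1.83 ± 0.58 (SE) had an adjusted p of 0.113 and a 95% interval from -3.14 to -0.52.

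The size of that shift in wild-type replicate 4 ordered another set of genes, named after their values were seen. Measured from the mean of wild-type replicates 1 to 3, the replicate stood at -2.67 for nlp-50, 2.0 for nlp-9, -1.87 for nlp-76, -1.68 for nlp-5 and 1.59 for nlp-14. These were the 5 largest such shifts among the 98 genes, and the mutant means stood from the same 3 arrays at -2.50, 1.43, -1.62, -1.67 and 1.22. For nlp-9 the wild type read 7.32, 7.35, 6.88 and 9.18 and the mutants 8.63, 9.01, 8.14 and 8.66. For nlp-14 the values were 6.41, 6.67, 6.68 and 8.18 against 7.66, 8.12, 7.49 and 7.98. In both genes replicate 4 was the highest of the 8 arrays. The signal of nlp-76 was 6.40, 6.47, 6.50 and 4.58 in the wild type and 4.59, 4.94, 4.98 and 4.83 in the mutants, so that replicate 4 was the lowest of the 8. None of the 5 passed over all arrays (adjusted p from 0.101 to 0.216). Without replicate 4 all 5 were called, with adjusted p from 8.59e-05 to 0.00105, beside 36.9% of all genes. The 5 were picked by the distance of replicate 4 from replicates 1 to 3. The mutants were then compared with those same 3 arrays, so these calls add no support.

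**Figure D2:**
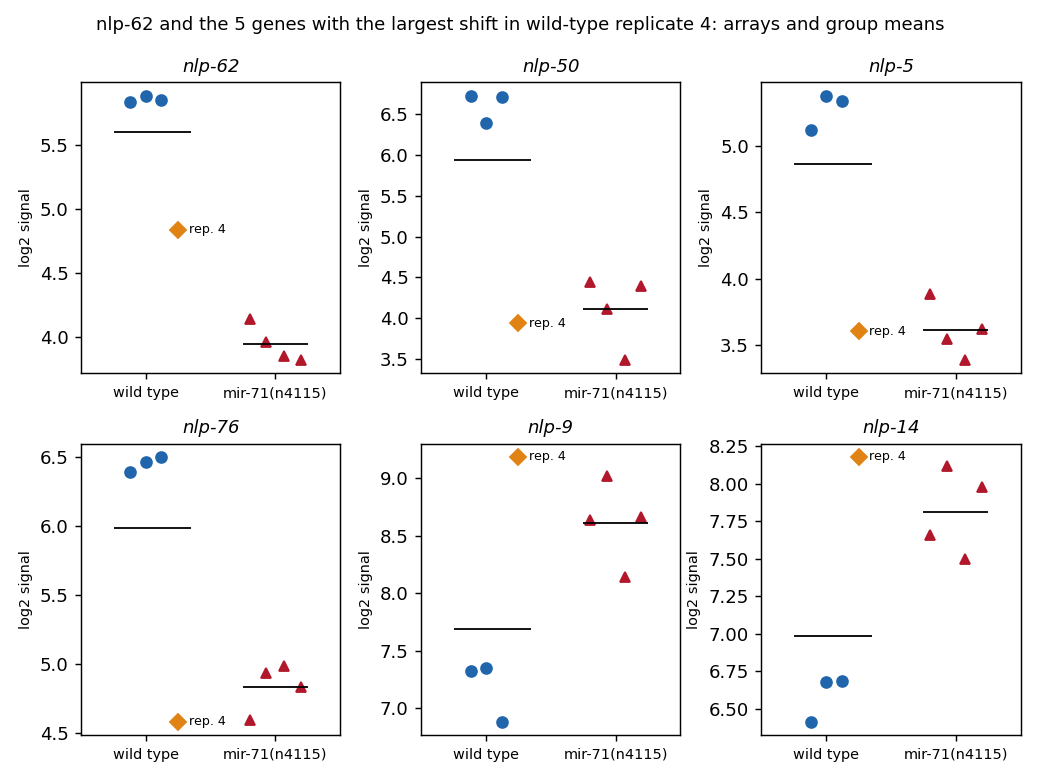
Log2 signal (vertical axis) of nlp-62 and of the 5 genes with the largest shift in wild-type replicate 4, in each array; circles are wild-type replicates 1 to 3, the diamond wild-type replicate 4, triangles the 4 mutants, and lines the means of the 4 arrays of a group. For nlp-62 the diamond (4.84) lies between the circles and the mutants, while for the other 5 genes it lies among or beyond the mutants.

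Without wild-type replicate 4, 11 flp and 30 nlp genes were called. As higher there were 5 flp and 11 nlp genes, 16.3% of the 98, beside 19.1% of all genes. As lower there were 6 flp and 19 nlp genes, 25.5% of the 98, beside 17.8% of all genes. All 41 had the same sign over all 8 arrays, but those include the arrays compared here, so the shared sign adds no support. In 38 of the 41 the array left out had lain nearer to the mutant mean, as it had in 85 of the 98 members. The counts of calls compare the mutants with 3 wild-type arrays and are not a measure of genotype alone. With the length trend removed as well, 32 of the 41 kept their call and sign. The balance turned, with 27 of the 98 then called as higher and 20 as lower. Over all genes 4206 were then higher and 4405 lower. The larger share of lower calls thus did not hold across processing.

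**Figure D3:**
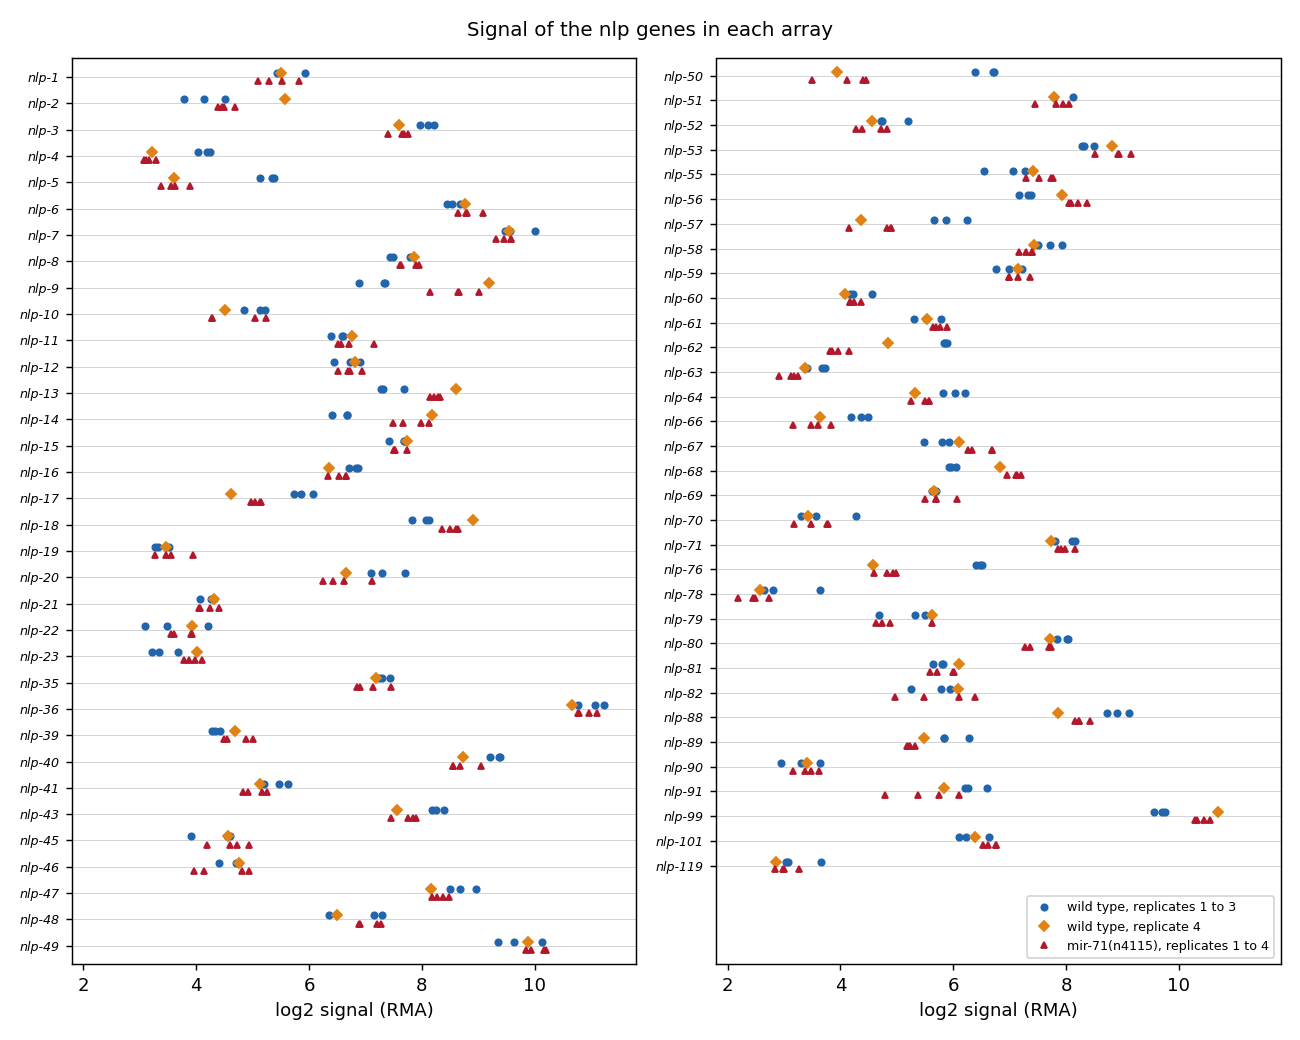
Log2 signal (horizontal axis) of the 67 nlp genes in each of the 8 arrays; circles are wild-type replicates 1 to 3, diamonds wild-type replicate 4 and triangles the 4 mutant arrays. The diamonds of nlp-5, nlp-50 and nlp-76 sit with the mutants at the low end and those of nlp-9 and nlp-14 with the mutants at the high end.

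Among flp genes flp-3, known from male responses to a pheromone, had the lowest p. Its wild-type signals were 8.14, 8.06, 7.99 and 8.53 and its mutant signals 8.57, 8.70, 8.82 and 8.83, a difference of 0.55 ± 0.15 (SE; limma, adjusted p = 0.0865). Replicate 4 of the wild type lay just under the lowest mutant. In flp-16 the wild type read 8.40, 8.39, 8.26 and 9.0 and the mutants 9.21, 8.90, 9.28 and 9.04 (0.60 ± 0.18, adjusted p = 0.104), so the groups overlapped through replicate 4. For flp-22 the wild type read 9.23, 8.58, 9.19 and 8.23 and the mutants 7.94, 8.13, 8.31 and 7.69 (-0.79 ± 0.24, adjusted p = 0.107), and again replicate 4 was the wild-type array inside the mutant range. All 3 were called once it was left out, at 0.67 for flp-3 (adjusted p = 0.00205), 0.76 for flp-16 (0.00174) and -0.98 for flp-22 (0.00514). In that comparison 35.5% of flp genes and 36.9% of all genes were called. The 3 genes were picked by low p over all 8 arrays, which include those compared here, so these calls add no support.

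In flp-34, which encodes peptides of aversive olfactory learning, the groups did not overlap. The wild type read 6.51, 6.61, 6.29 and 6.69 and the mutants 6.80, 6.95, 6.88 and 7.03 (0.39 ± 0.12, adjusted p = 0.112). Its difference was 0.22 (adjusted p = 0.229) with the length trend removed, and 0.45 (adjusted p = 0.0173) without wild-type replicate 4. The signal of flp-6, a peptide gene of the thermosensory neuron AFD with a known role in lifespan at warm temperature, was 9.49, 9.55, 9.64 and 9.50 in the wild type and 9.82, 9.74, 9.96 and 9.75 in the mutants. This was a small difference of 0.28 ± 0.11 (adjusted p = 0.152), and one in which wild-type replicate 4 stood with the other wild-type arrays. The gene was not called without that array either (0.26, adjusted p = 0.0875). With the length trend removed its difference was 0.38 (adjusted p = 0.0885). With both changes flp-6 was called (0.41, adjusted p = 0.0139) and flp-34 was not (0.21, adjusted p = 0.164). The 3 genes flp-28, flp-3 and flp-2 follow each other on chromosome X with no other protein-coding gene of the RefSeq table between them. Their differences were 0.19, 0.55 and 0.24, and none passed. The neighbours nlp-9 and nlp-13 on chromosome V differed by 0.93 and 0.52 (adjusted p = 0.216 and 0.238). Both were called without wild-type replicate 4, at 1.43 and 0.81 (adjusted p = 0.00105 and 0.00155). Other neighbours on X were nlp-119, nlp-90 and nlp-91, which did not share a sign (-0.13, 0.081 and -0.72). The run of nlp-45, nlp-22, nlp-23 and nlp-2 did, with differences of 0.21, 0.071, 0.37 and 0.0094. None of these was called over all 8 arrays. Without wild-type replicate 4, nlp-91 (adjusted p = 0.04) and nlp-23 (adjusted p = 0.0184) were called.

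**Figure D4:**
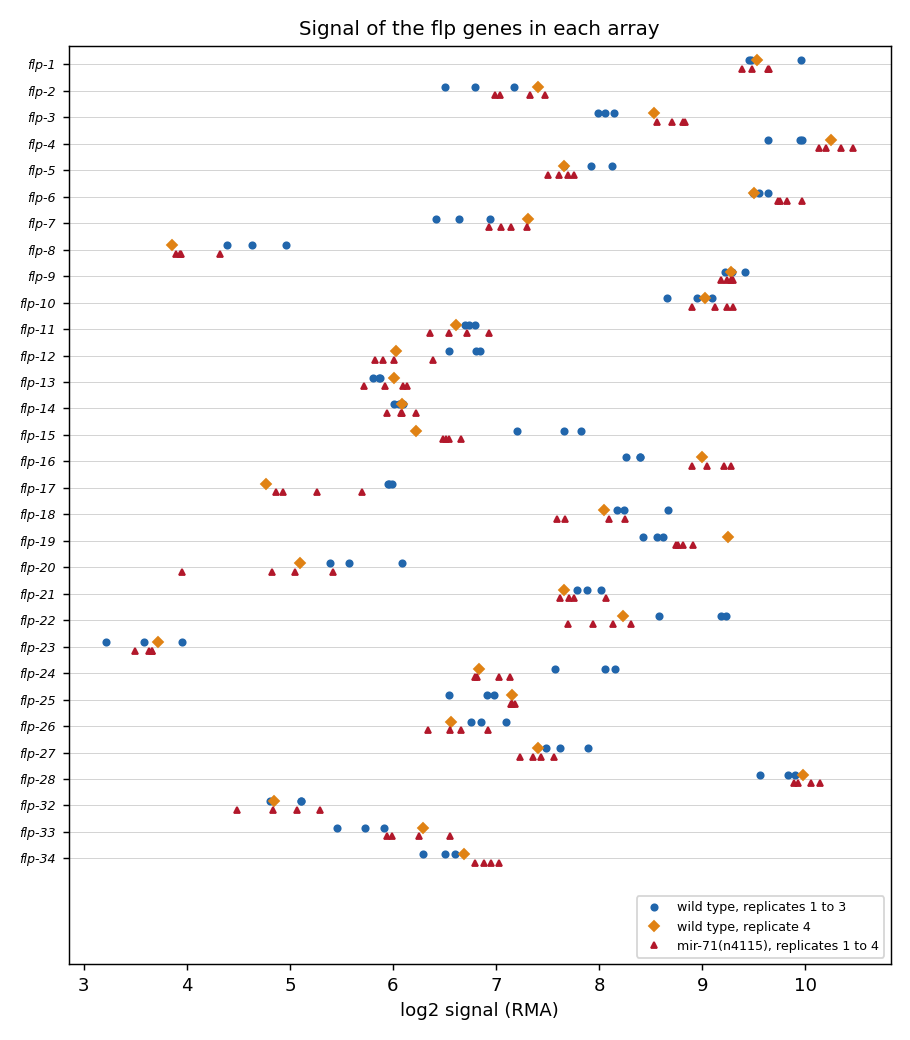
Log2 signal (horizontal axis) of the 31 flp genes in each of the 8 arrays; circles are wild-type replicates 1 to 3, diamonds wild-type replicate 4 and triangles the 4 mutant arrays. For flp-3, flp-6 and flp-34 all triangles lie to the right of all wild-type symbols, while for flp-15, flp-17 and flp-24 the diamond lies with the triangles to the left.

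Of the peptides that promote sleep, 0 of 5 genes passed, with 1 at an unadjusted p under 0.05. Over all genes 1.84% passed and 26.1% had such a p. The counts in this and the following lists are too small to be told from those shares. The neuron ALA releases FLP-13, FLP-24 and NLP-8 in the sleep that follows cellular stress. The gene flp-24 read 8.06, 7.57, 8.15 and 6.83 in the wild type and 7.13, 6.80, 7.03 and 6.82 in the mutants (-0.71 ± 0.27, adjusted p = 0.148), and without wild-type replicate 4 it was called (-0.98, adjusted p = 0.00198). The intervals of the other 4 genes all included 0. For flp-13 the wild type read 5.87, 5.80, 5.86 and 6.01 and the mutants 5.92, 6.09, 5.72 and 6.13, a difference of 0.080 with a 95% interval from -0.20 to 0.36. In nlp-8 the wild type read 7.44, 7.49, 7.79 and 7.86 and the mutants 7.61, 7.90, 7.95 and 7.62 (0.12, interval -0.21 to 0.46). Both of these ALA genes had overlapping groups. The gene flp-11, used by the sleep neuron RIS, read 6.73, 6.70, 6.79 and 6.61 in the wild type, inside the mutant spread of 6.36, 6.54, 6.93 and 6.72. It differed by -0.071 (-0.39 to 0.25), which turned to 0.15 with the length trend removed. For nlp-22, a peptide gene of RIA neurons with a role in sleep at the moults, wild-type values of 3.48, 3.08, 4.22 and 3.93 spread around mutant values of 3.61, 3.93, 3.90 and 3.55. All 8 nlp-22 values were below the array medians, and the interval of the difference (0.071) ran from -0.46 to 0.60.

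Egg laying is held back by several of these peptides and driven by others, and 0 of 6 genes with such a role passed, flp-11 among them. None of the 6 had an unadjusted p under 0.05. The gene flp-17, whose peptides act through the receptor EGL-6 and come from the gas-sensing neuron BAG, read 5.96, 5.99, 5.95 and 4.77 in the wild type and 5.27, 4.86, 5.70 and 4.94 in the mutants. Replicate 4 was the lowest of the 8 arrays, and the difference was -0.48 ± 0.30 (adjusted p = 0.325). Without that array it was -0.78 (adjusted p = 0.0133). The other EGL-6 ligand gene, flp-10, read 9.10, 8.66, 8.95 and 9.03 in the wild type and 9.12, 8.90, 9.30 and 9.24 in the mutants, with overlap (0.21, interval -0.11 to 0.53). For nlp-3, a gene for egg-laying peptides of the motor neuron HSN, the wild type read 8.10, 7.97, 8.21 and 7.60 and the mutants 7.76, 7.40, 7.68 and 7.65 (-0.35 ± 0.16, adjusted p = 0.194). Without replicate 4 it too was called (-0.47, adjusted p = 0.0169). The inhibitory gene nlp-7 read 9.55, 9.47, 10.01 and 9.55 in the wild type and 9.59, 9.46, 9.57 and 9.32 in the mutants (-0.16, interval -0.49 to 0.17). Its highest value was wild-type replicate 3, and the others overlapped. For flp-1, a locomotion peptide gene of AVK neurons, wild-type values of 9.48, 9.95, 9.45 and 9.53 met mutant values of 9.38, 9.48, 9.64 and 9.65 (-0.066, interval -0.39 to 0.26). The differences of nlp-7 and flp-1 turned positive, 0.058 and 0.083, with the length trend removed.

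Ligands of NPR-1, the receptor behind social feeding, did not pass. The gene flp-18 read 8.24, 8.17, 8.66 and 8.05 in the wild type and 7.67, 7.59, 8.25 and 8.10 in the mutants, with overlapping groups (-0.38 ± 0.19, adjusted p = 0.239). For flp-21 the wild type read 7.88, 7.79, 8.02 and 7.66 and the mutants 8.07, 7.76, 7.62 and 7.71, also with overlap. Its difference was -0.050 (-0.36 to 0.26), and 0.15 with the length trend removed.

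Peptides that limit repeated turning by mating males are encoded by flp-8, flp-10, flp-12 and flp-20. Of these 4, 0 passed while 2 had an unadjusted p under 0.05, beside 26.1% of all genes. In flp-12 the wild type read 6.84, 6.54, 6.80 and 6.03 and the mutants 6.01, 5.83, 6.39 and 5.90 (-0.53 ± 0.20, adjusted p = 0.153). For flp-20, also a gene of touch receptor neurons, wild-type values of 5.57, 5.39, 6.08 and 5.10 met mutant values of 5.05, 3.95, 5.42 and 4.83 (-0.72 ± 0.32, adjusted p = 0.186). The mutant SD of 0.62 went with a low value in replicate 2. The dim gene flp-8 read 4.96, 4.39, 4.63 and 3.86 in the wild type and 3.93, 3.94, 4.33 and 3.90 in the mutants (-0.44 ± 0.23, adjusted p = 0.240). Without wild-type replicate 4, flp-8 and flp-12 were called as lower (adjusted p = 0.0160 and 0.00803), as were 17.8% of all genes.

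The gene nlp-1, whose peptides are released by AWC neurons and act in olfactory adaptation through the receptor NPR-11, bears on the neurons in which mir-71 is known to act. It read 5.94, 5.42, 5.49 and 5.50 in the wild type and 5.82, 5.52, 5.09 and 5.29 in the mutants. The groups overlapped, with a difference of -0.16 ± 0.18 (SE; adjusted p = 0.600), an interval from -0.57 to 0.26 and a value of 0.060 with the length trend removed.

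Outside the brain, nlp-40 is expressed by the intestine and its peptide triggers the expulsion step of defecation. Its wild-type signals were 9.36, 9.20, 9.39 and 8.73 and its mutant signals 8.68, 8.55, 9.04 and 8.55 (-0.46 ± 0.18, adjusted p = 0.155). Replicate 4 lay inside the mutant range, and without it the gene was called (-0.61, adjusted p = 0.0101). Of 11 intestine markers 0 were called and the median was -0.14, with a mean signal of 9.94 to 10.01 in wild-type replicates 1 to 3, 9.80 in replicate 4 and 9.82 to 9.86 in the mutants. The list was mixed, with 3 markers higher in the mutants, ifb-2 (0.61) among them, and 8 lower, ges-1 (-1.05) among them. The part of these markers in the nlp-40 values was not tested.

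A further 3 genes with a known role had overlapping groups. The 5 genes of this mixed list, nlp-1 and nlp-40 among them, held 0 calls; nlp-37 and nlp-44 stand on the array as pdf-2 and capa-1 and are counted with the other neuropeptide genes. For nlp-12, a cholecystokinin-like gene of the stretch-sensing neuron DVA, the wild type read 6.90, 6.72, 6.45 and 6.82 and the mutants 6.72, 6.68, 6.51 and 6.94, with a difference of -0.0046 that changed sign between processing choices. Its interval ran from -0.33 to 0.32. The gene nlp-47, related to gonadotropin-releasing hormone, read 8.68, 8.50, 8.96 and 8.15 in the wild type and 8.38, 8.27, 8.49 and 8.17 in the mutants (-0.24, interval -0.64 to 0.15). Wild-type replicate 4 was the lowest of the 8. For nlp-49, a gene for an arousal peptide of the receptor SEB-3, the values were 9.63, 9.35, 10.13 and 9.88 against 10.20, 9.85, 10.16 and 9.94 (0.29, interval -0.11 to 0.69).

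Some members shared a position that the rule did not use. Of the 98 genes 35 lie on chromosome X (35.7%), which carries 19.3% of the genes on the array. On X the median log2 difference of all genes was 0.13 and of the neuropeptide genes 0.0094. These 2 medians were 0.17 and 0.11 without wild-type replicate 4, and 0.078 and 0.15 with the length trend removed, so their order depended on the processing. Off X the medians were -0.010 for all genes and -0.051 for the neuropeptide genes. Called genes among the X-linked neuropeptide genes numbered 0 of 35, beside 1.33% of all X genes. An unadjusted p under 0.05 was found in 11 of the 35 (31.4%), near the 27.5% of all X genes.

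The replicates of a genotype varied for neuropeptide genes about as they did for other genes. The median SD over the 98 genes was 0.18 among the mutants and 0.19 among wild-type replicates 1 to 3, beside 0.17 and 0.19 over all genes. With replicate 4 the wild-type SD was 0.29, beside 0.28. On every array 17 nlp and 2 flp genes were below the array median, where 43.0% of all genes were, so detection of these 19 above background is uncertain.

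Other genes of the pathway are given next, from lists chosen with earlier results known. Of 7 neuropeptide genes with other names 0 were called, 3 of the 7 being at an unadjusted p under 0.05. Over all genes 1.84% were called and 26.1% had such a p. The median of these 7 was -0.044. The lowest p was that of trh-1, a thyrotropin-releasing hormone-like gene of body growth. It read 8.02, 7.70, 8.12 and 6.02 in the wild type and 5.98, 5.51, 5.23 and 5.98 in the mutants (-1.79 ± 0.43, adjusted p = 0.0712). All mutants were lower, but wild-type replicate 4 stood just above them, and without it the gene was called (-2.27, adjusted p = 1.50e-04). The gene of its receptor, trhr-1, had the lowest p of 24 receptor genes, 0 of which were called (median 0.11, 4 at an unadjusted p under 0.05). Wild-type values of 7.33, 7.35, 7.36 and 7.49 lay below mutant values of 7.95, 7.72, 8.16 and 7.76 (0.52 ± 0.13, adjusted p = 0.0760), and replicate 4 was nearer to the other wild-type arrays. Without it trhr-1 was called (0.55, adjusted p = 0.0101). In all, 4 of the 24 receptor genes then rose and 3 fell, and 1 of the 7 other neuropeptide genes rose and 3 fell. Of all genes 19.1% rose and 17.8% fell in that comparison.

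Genes that process and pack the peptides had higher estimates in the mutants. Of 13 genes that cleave, trim, amidate or degrade peptides 0 were called, although 11 had a higher estimate and 6 an unadjusted p under 0.05 (46.2%, median 0.34). Over all genes 13209 of 25478 had a higher estimate and 26.1% such a p. The lowest p was that of cpd-2, a carboxypeptidase gene, at 0.41 ± 0.13 (SE; adjusted p = 0.115). The convertase gene egl-3, named after its values were seen, read 9.31, 9.69, 9.08 and 10.89 in the wild type and 10.34, 10.82, 10.23 and 10.65 in the mutants, with replicate 4 the highest of the 8 arrays (0.76 ± 0.36, adjusted p = 0.206). Of 11 genes of dense core vesicles 0 were called, with 2 at an unadjusted p under 0.05, 9 higher and a median of 0.29. Without wild-type replicate 4, 8 of the 13 processing genes and 5 of the 11 vesicle genes were called as higher, beside 19.1% of all genes. Among them were cpd-2 (0.46, adjusted p = 0.0204) and egl-3 (1.15, adjusted p = 0.0019). The mean signal of the processing genes was 8.30 to 8.59 in wild-type replicates 1 to 3, 9.02 in replicate 4 and 8.76 to 8.99 in the mutants. Among vesicle genes hid-1, which keeps peptides in maturing vesicles, had the lowest p (0.66 ± 0.23, adjusted p = 0.126). Without wild-type replicate 4 it was called (0.865, adjusted p = 0.00438). With the length trend removed the medians of the 3 lists were 0.16 for processing, 0.024 for vesicles and 0.021 for receptors.

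The genes nlp-24 to nlp-34, which share a name with the nlp genes and were left out, showed other values. Of these 11, 2 fell, 0 rose and all 11 were lower, with a median of -0.99. The 2 calls are 18.2% of the list, beside 1.22% of all genes called as lower. Their mean signal was 7.55 to 7.73 in wild-type replicates 1 to 3, 6.72 in replicate 4 and 6.36 to 6.55 in the mutants, so that replicate 4 stood nearer to the mutants. Without it 8 of the 11 fell, beside 17.8% of all genes (median -1.27). The genes that fell were nlp-25, from 7.62 to 5.77 (adjusted p = 0.0402), and nlp-30, from 5.77 to 3.82 (adjusted p = 0.0423). The difference between these 11 and the other nlp genes was not tested.

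**Figure D5:**
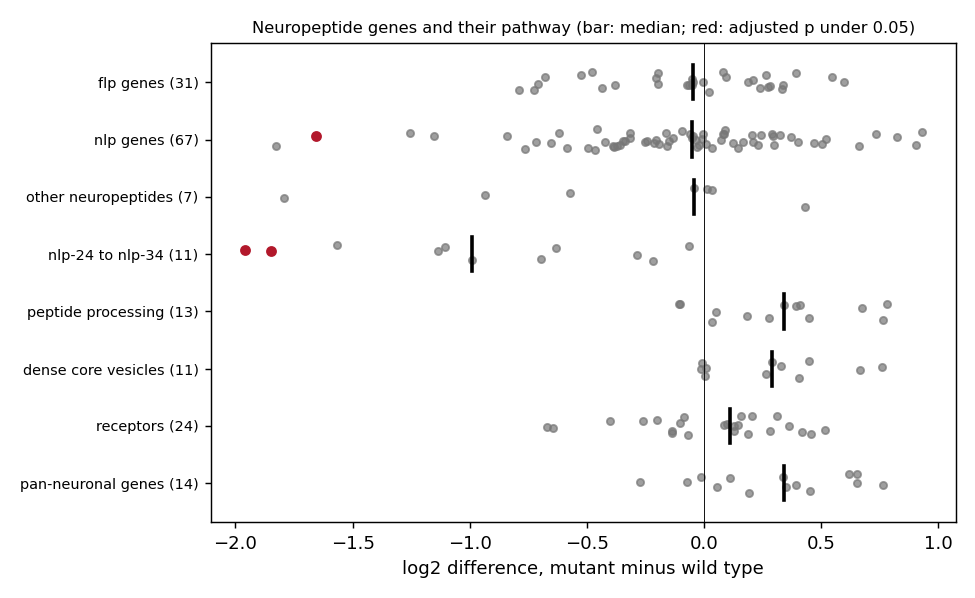
Log2 difference (horizontal axis, mutant minus wild type) of each gene in the neuropeptide families and in lists of the pathway, with 1 point per gene, the median of each list as a bar, and genes with an adjusted p under 0.05 in red. The flp and nlp medians lie at -0.048 and -0.053, those of peptide processing and pan-neuronal genes at 0.34, and that of nlp-24 to nlp-34 at -0.99.

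In several marker lists wild-type replicate 4 also stood nearer to the mutants, but not in the sperm list. Pan-neuronal markers had 0 of 14 called and a median of 0.34, with a mean log2 signal of 7.96 to 8.01 in wild-type replicates 1 to 3, 8.44 in replicate 4 and 8.34 to 8.44 in the mutants. The list shares egl-3 with the processing genes and unc-31 with the vesicle genes. Markers of neuron classes had 0 of 12 called (median 0.30), epidermis 0 of 12 (0.35), body wall muscle 0 of 11 (0.31), pharynx 0 of 10 (0.11) and oocytes and early embryos 0 of 15 (0.17). Moulting markers had 2 of 14 risen (median 0.80), with a mean of 6.77 to 7.03 in wild-type replicates 1 to 3, 7.73 in replicate 4 and 7.60 to 7.87 in the mutants. Sperm markers had 4 of 7 measured fallen (median -1.15), with 5.01 to 5.39 in the mutants, 6.05 in wild-type replicate 4 and 5.96 to 6.22 in replicates 1 to 3. Without replicate 4 the calls were 8 higher and 1 lower for pan-neuronal, 3 and 1 for neuron class, 9 and 1 for moulting, 7 and 0 for epidermis, 8 and 0 for body wall muscle, 4 and 2 for pharynx, 6 and 0 for oocyte and embryo, 3 and 4 for intestine and 0 and 6 for sperm markers. In that comparison 19.1% of all genes were called as higher and 17.8% as lower. Over all 8 arrays 157 of 25478 genes were called as higher and 312 as lower. With the length trend removed the medians were 0.16 for pan-neuronal, 0.30 for neuron class, 0.57 for moulting and 0.31 for epidermis markers. They were 0.091 for body wall muscle, 0.20 for pharynx and 0.25 for oocyte and embryo markers. Intestine markers had -0.098 and sperm markers -1.04. What part these lists have in the neuropeptide values was not tested.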

How the data were processed

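The authors deposited log2 signals of 29317 probe sets in 8 arrays. Partek 6.6 and RMA are named in the submitters' processing notes, without settings. That the scale is log2 was read from the range of the values. RMA forces the arrays to one distribution, which hides any shift common to most genes. Detection above background was not analysed here. Names came from GEO's platform annotation: 26192 probe sets were tested, 25546 with 1 gene symbol and 646 with several, which name no gene. All 98 members matched the RefSeq table by Entrez identifier. It supplied chromosomes, neighbours and the gene spans of the length correction (25434 genes). No coordinates are printed, as the sources used here name no build for the array.

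Groups came from the labels. Differences (mutant minus wild type, no covariate) were tested 2-sided with eBayes after lmFit in limma 3.58.1 (R 4.3.3), with Benjamini-Hochberg adjustment over 26192 probe sets and a threshold of 0.05. It was tested on simulated data with independent noise in each probe set. Those data held no array shifted over many genes, so that test does not cover the position of wild-type replicate 4. Intervals are 95% limma intervals. Counts over all genes used the brightest single-gene row of each of 25478 genes. The members, gene lists and rules were chosen with earlier results of these data known. Values in every array are given for called members, for the 8 flp and 8 nlp genes of lowest p and for members with a listed role; from each pathway list, called genes or the gene of lowest p are named. Alternatives were quantile normalisation, median subtraction, a replicate block, a filter on dim rows, trend and robust eBayes, array weights, a threshold of 0.01, each array left out, the median of a gene's rows, and removal of each array's trend with gene length.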

Additional observations from a re-analysis of the deposited data

Results flagged for a closer look

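An array far from the other 3 of its group was looked for in each genotype of the 33 genes named by rule, 66 groups in all, of which chance would pick about 1 in 20. It was found in 9. In 5 of these it was wild-type replicate 4, with 4.84 for nlp-62, 6.83 for nlp-68, 3.60 for nlp-5, 3.94 for nlp-50 and 4.77 for flp-17. The others were wild-type replicate 3 for nlp-7 (10.01), wild-type replicate 1 for nlp-1 (5.94), wild-type replicate 2 for flp-1 (9.95) and mutant replicate 3 for flp-8 (4.33).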

How the results depend on the processing

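The call of nlp-62 and the absence of flp calls held with quantile normalisation, trend and robust eBayes, without the dimmest 40% of rows, with the median of a gene's rows and with the length trend removed. With array medians subtracted 2 nlp genes were called, nlp-62 and nlp-68. Array weights gave 13 flp, 33 nlp and 10466 genes in all, in place of 0, 1 and 469. Without the length trend and wild-type replicate 4 there were 14, 33 and 8611. At an adjusted p of 0.01 there were 0 flp, 0 nlp and 23 genes in all. Leaving out 1 array gave 0 to 11 flp genes, 0 to 30 nlp genes and 38 to 9401 genes, the most without wild-type replicate 4 in each case. The flp median of -0.048 became 0.13 with the length trend removed and 0.16 without replicate 4 as well, and lay between -0.060 and 0.036 with 1 array left out. The nlp median of -0.053 became 0.087 without the length trend and replicate 4, and lay between -0.10 and 0.0022 with 1 array left out. The causes were not tested. Same-numbered samples of the 2 genotypes correlated at 0.19, -0.11, 0.37 and 0.27 in their deviations from the group means. Samples of different number correlated at -0.37 to 0.43. These values do not settle whether the replicate numbers pair the samples. The replicate block gave 0 flp genes, 1 nlp gene and 345 genes in all.

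Near-level genes changed sign. With the length trend removed, and then without wild-type replicate 4 as well, nlp-7 gave 0.058 and 0.11, nlp-1 0.060 and 0.11, flp-11 0.15 and 0.20, flp-1 0.083 and 0.11, flp-21 0.15 and 0.16, and nlp-12 0.16 and 0.25. For nlp-12 array medians gave 0.0037, array weights 0.012 and quantile normalisation 0.018. With 1 array left out flp-11 ran from -0.17 to 0.023, flp-1 from -0.12 to 0.051, flp-21 from -0.14 to 0.011, nlp-22 from -0.13 to 0.25 and nlp-12 from -0.10 to 0.064. Precision was limited by 4 arrays per group.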
